A study of Mus musculus with 8 samples.

Results

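Tumor-associated macrophages (TAMs) of untreated WT mice were compared with those of untreated *Unc93b1* 3d/3d mice across all expressed genes, using the 4 control libraries of the 8 in the RNA-seq series. The members are the 2 WT control and the 2 *Unc93b1* 3d/3d control libraries, taken by genotype and treatment from the sample labels. The other 4 libraries come from WT and *Unc93b1* 3d/3d mice given αMARCO, an antibody to the scavenger receptor MARCO, at 100 µg per dose, and are set beside the control values at the end. All mice were females carrying EO771 tumors, a transplanted mouse breast cancer line grown in the mammary fat pad, and TAMs were sorted on day 21 by gating live cells positive for CD45, CD11b and F4/80 and negative for Gr-1. Each library was pooled from several mice. The 3d allele is carried in the germline, so every cell of the 3d/3d mice has it, not the macrophages alone. It is a point mutation, so RNA levels do not check the genotype labels. The genotype tag of the second 3d/3d control sample reads 3d/4d while its title reads 3d/3d, and the title was followed. The control animals are labelled as untreated or PBS, whereas the treatment protocol names an isotype control antibody, so the injection they received is unsettled.

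UNC93B1 is a membrane chaperone that carries nucleic acid-sensing Toll-like receptors (TLRs) from the endoplasmic reticulum to endosomes, where TLR3, TLR7 and TLR9 meet RNA or DNA from ingested material. The 3d allele blocks this transport, so these receptors do not signal. TAMs clear dying cells, take up and re-export lipid, remodel matrix and release cytokines, and TLR signals through NF-κB are known to shift macrophages among these tasks.

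Library totals ranged from 15182618 to 19021112 counts, so 3 counts, taken as the detection floor, equalled 0.158 to 0.198 CPM (counts relative to the library total, scaled with edgeR's TMM factors over all 8 libraries). Macrophage and gate genes were abundant in every control library, with summed levels of 8463 and 8579 CPM in WT and 8504 and 9705 CPM in *Unc93b1* 3d/3d. Of the 9 genes 2 were higher in WT and 2 in *Unc93b1* 3d/3d. *Itgam*, which encodes the gate protein CD11b, was higher in WT, with 492 and 499 CPM against 291 and 342 CPM. Its log2 fold change was 0.63 (SE 0.11, edgeR adjusted *P* = 0.00458, and 0.137 in a model of all 8 libraries). *Adgre1*, which encodes F4/80, had 574 and 719 CPM in WT and 478 and 543 CPM in *Unc93b1* 3d/3d, and *Csf1r*, the receptor for macrophage growth factor CSF-1, had 1029 and 903 CPM against 952 and 1101 CPM. Markers of other cells were detected as well and differed. The 16 T cell markers summed to 171 and 192 CPM in WT and 37.8 and 18.8 CPM in *Unc93b1* 3d/3d, with 16 of 16 higher in WT. Nonclassical monocyte markers summed to 1928 and 1952 CPM against 766 and 635 CPM, with 7 of 13 higher in WT and 1 lower there, and mature dendritic cell markers to 1860 and 1288 CPM against 926 and 927 CPM, with 5 of 11 higher in WT and 1 lower there. Fibroblast markers went the other way, at 139 and 119 CPM in WT and 196 and 162 CPM in *Unc93b1* 3d/3d, with 3 of 9 higher in *Unc93b1* 3d/3d and 1 higher in WT. B cell markers summed to 124 and 179 CPM in WT and 59.2 and 56.5 CPM in *Unc93b1* 3d/3d, with 3 of 6 higher in WT and 1 lower, and NK cell markers to 182 and 161 CPM against 71.7 and 45.2 CPM, with 4 of 12 higher in WT. With a control library left out, the markers higher in WT numbered 1 to 3 for B cells, 2 to 7 for NK cells and 2 to 8 for mature dendritic cells. In these bulk samples, fewer cells of a type and less RNA per cell cannot be told apart.

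Fold changes are WT over *Unc93b1* 3d/3d on the log2 scale, from edgeR's quasi-likelihood test on the raw counts, and a gene is called higher or lower only at a Benjamini-Hochberg adjusted *P* of at most 0.05 and a log2 fold change of at least 0.5 in size. By this rule 13% of the 15600 tested genes were called, 6.58% as higher in WT and 6.4% as higher in *Unc93b1* 3d/3d. The CPM of the genotypes did not overlap for 63.1% of tested genes, so that with 2 libraries each a lack of overlap says little by itself. Beyond the cytokine and checkpoint genes, the differences were spread over metabolism, uptake, matrix and signalling genes, described here through 43 gene lists. Of 1164 tested list genes, 175 were higher in WT and 128 in *Unc93b1* 3d/3d, 26% together. The lists were written by hand with earlier results of these data known, so shares called among list genes do not measure enrichment over the 13%. Metabolism genes leaned to WT, with 58 of 388 higher there and 23 higher in *Unc93b1* 3d/3d. Signalling genes did too, with 71 of 444 higher in WT and 46 lower there. Uptake genes divided evenly, with 27 and 29 of 208. Matrix genes were called most often, at 39.2% of 143, with 24 higher in WT and 32 in *Unc93b1* 3d/3d. A single model over all 8 libraries, whose spread includes the αMARCO samples, called 364 genes in place of 2025, and among list genes 9 metabolism, 9 uptake, 10 matrix and 34 signalling genes higher in WT against 5, 6, 1 and 4 higher in *Unc93b1* 3d/3d. Without the first *Unc93b1* 3d/3d library the genes higher in *Unc93b1* 3d/3d numbered 651 in place of 998.

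**Figure D1:**
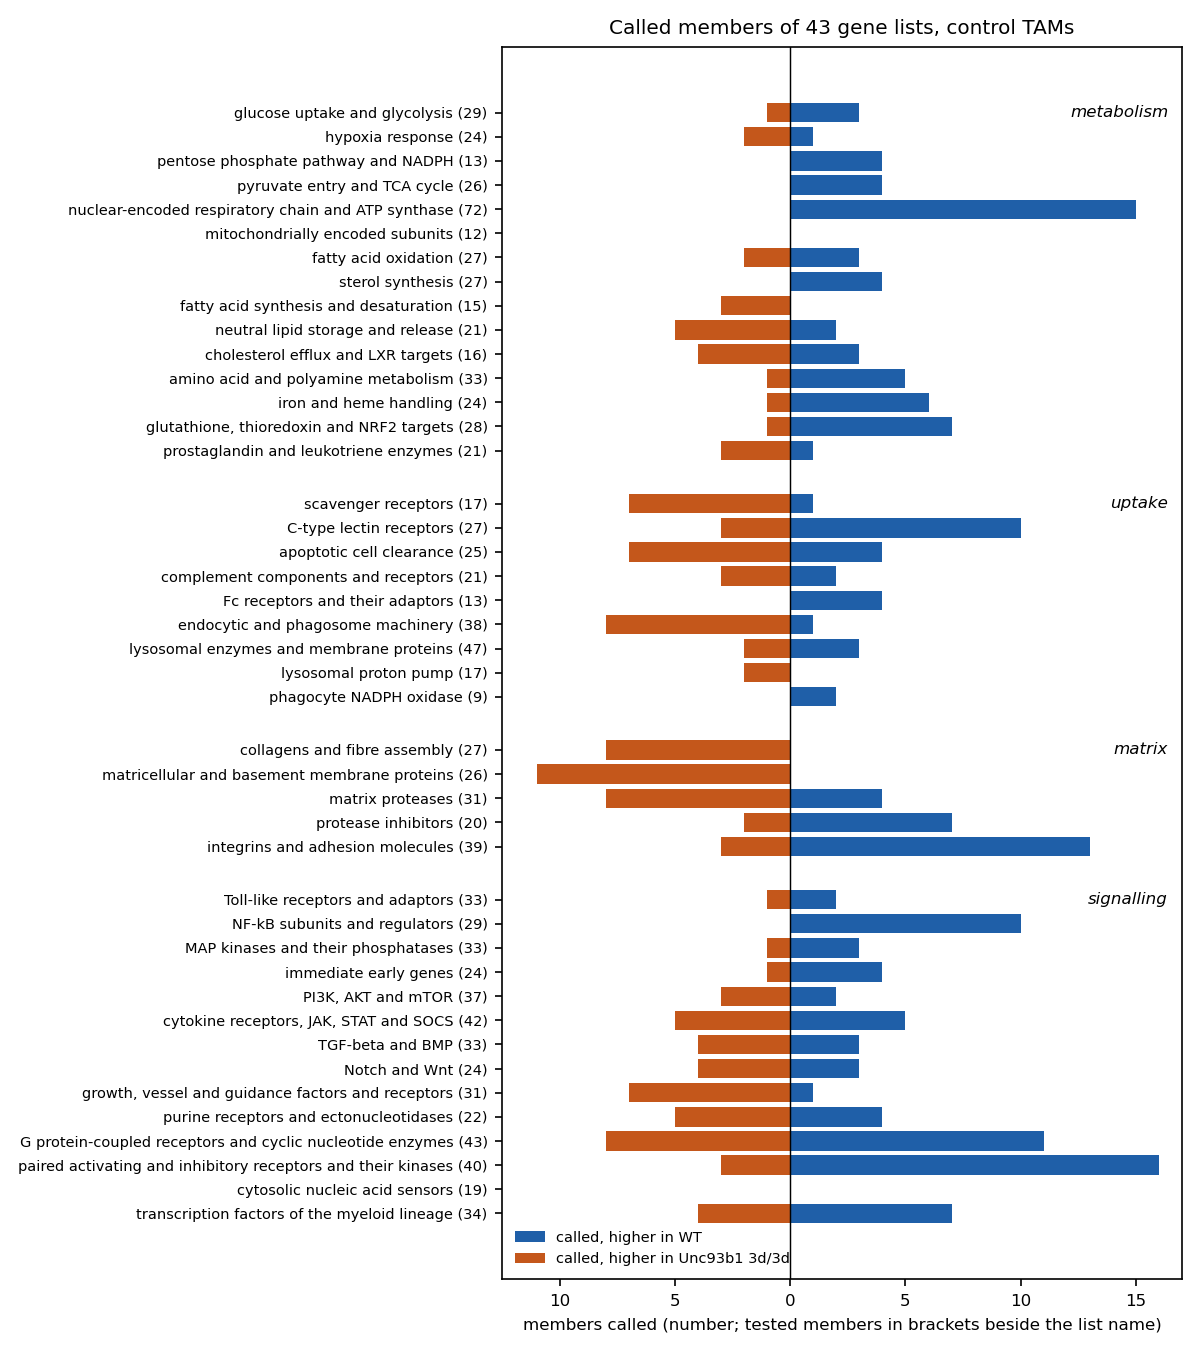
Number of list genes called in control TAMs, with bars to the right for genes higher in WT and bars to the left for genes higher in *Unc93b1* 3d/3d, for each of the 43 gene lists, with the number of tested genes in brackets. Paired receptors (16 against 3), integrins and adhesion molecules (13 against 3) and NF-κB regulators (10 against 0) lean to WT, while collagens (0 against 8), matricellular proteins (0 against 11) and scavenger receptors (1 against 7) lean to *Unc93b1* 3d/3d.

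A few surface genes were close to present in one genotype and absent in the other. *Fcrl5* (ENSMUSG00000048031, chromosome 3, 87435773 to 87500678), an Fc receptor-like protein studied mainly in B cells, had 3501 and 4191 counts in the WT libraries but 2 and 5 in those of *Unc93b1* 3d/3d, or 185 and 232 CPM against 0.126 and 0.254 CPM. The ratio of summed, scaled levels was 1058, with an exact interval of 513 to 2633 for counting error only. The fitted log2 fold change was 9.99 (SE 0.24, edgeR adjusted *P* = 1.08e-07). The B cell markers were also higher in sum in WT, and their part in this value was not tested. Its relative *Fcrls*, on the same chromosome from 87250758 to 87263738, went the opposite way, with 69.9 and 47.1 CPM in WT and 314 and 377 CPM in *Unc93b1* 3d/3d (log2 fold change −2.58, SE 0.20, edgeR adjusted *P* = 0.000498). *Fcrls* is a gene typical of microglia and some tissue macrophages. Reads of the Fcrl family could be shared between its members, and how such reads were assigned is not given in the sources used here.

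*Itgad*, the integrin αD chain (chromosome 7, 128154376 to 128223816), was counted 656 and 500 times in WT but 1 and 4 times in *Unc93b1* 3d/3d, a ratio of 223 with an exact counting interval of 95.1 to 687. *Negr1*, a neuronal adhesion protein (chromosome 3, 156561794 to 157316445), was counted 266 and 230 times in WT but 0 times in *Unc93b1* 3d/3d, which makes it at least 159-fold higher in WT when 3 counts are allowed over the *Unc93b1* 3d/3d group. *Cd300e*, an activating receptor of monocytes (chromosome 11, 115051917 to 115062177), had 558 and 615 CPM in WT and 10 and 7.56 CPM in *Unc93b1* 3d/3d (log2 fold change 6.05, SE 0.16, edgeR adjusted *P* = 1.08e-07). Its family members *Cd300lb* and *Cd300ld* were not called, with log2 fold changes of −0.25 and 0.30. Outside the lists, *Asb2*, a subunit of a ubiquitin ligase that degrades filamins, had 58.9 and 75 CPM against 1.51 and 1.22 CPM (5.61, SE 0.20, edgeR adjusted *P* = 1.31e-06), and *Ptprm*, a receptor tyrosine phosphatase, had 26.3 and 38.7 CPM against 0.941 and 0.456 CPM. *Fcrl5*, *Fcrls*, *Itgad*, *Cd300e*, *Asb2* and *Ptprm* were called in the model of all 8 libraries and under each other alternative that tested them. *Fcrl5*, *Itgad* and *Ptprm* were not tested with a filter of 10 counts in every library.

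Genes of lipid handling changed in both directions within the same lists. *Nr1h3*, which encodes the oxysterol-sensing nuclear receptor LXRα, had 149 and 217 CPM in WT and 42.6 and 59.8 CPM in *Unc93b1* 3d/3d (log2 fold change 1.82, SE 0.24, edgeR adjusted *P* = 0.0094). *Pparg*, the fatty acid-sensing receptor PPARγ, had 82.3 and 102 CPM against 27.1 and 29.4 CPM (1.69, SE 0.13, edgeR adjusted *P* = 6.74e-05). Both receptors were thus lower in *Unc93b1* 3d/3d TAMs, with no overlap between genotypes. Known targets of LXR divided. *Pltp*, the phospholipid transfer protein, followed *Nr1h3*, with 449 and 523 CPM in WT and 184 and 215 CPM in *Unc93b1* 3d/3d (1.27, SE 0.12), whereas *Abca1*, the cholesterol exporter, had 103 and 119 CPM in WT and 433 and 420 CPM in *Unc93b1* 3d/3d (−1.96, SE 0.11, edgeR adjusted *P* = 9.42e-06). *Apoe*, the lipid carrier that accepts exported cholesterol, was also higher in *Unc93b1* 3d/3d, at 5606 and 6790 CPM against 2479 and 2509 CPM (−1.33, SE 0.13). *Abcg1*, the partner exporter of *Abca1*, had a log2 fold change of 0.49, just under the threshold and past it without the first WT library (0.59), and *Scarb1*, the HDL receptor, was higher in WT (0.67, SE 0.11). *Ch25h*, which makes 25-hydroxycholesterol, had 30.2 and 22.6 CPM in WT and 85.9 and 131 CPM in *Unc93b1* 3d/3d (−2.05, SE 0.25). Of 16 tested genes of cholesterol efflux, 3 were higher in WT and 4 in *Unc93b1* 3d/3d, and 5 were higher in WT without the second *Unc93b1* 3d/3d library. In the model of all 8 libraries *Apoe* and *Scarb1* were not called (edgeR adjusted *P* = 0.117 and 0.063), while *Nr1h3*, *Pparg*, *Pltp*, *Abca1* and *Ch25h* were.

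**Figure D2:**
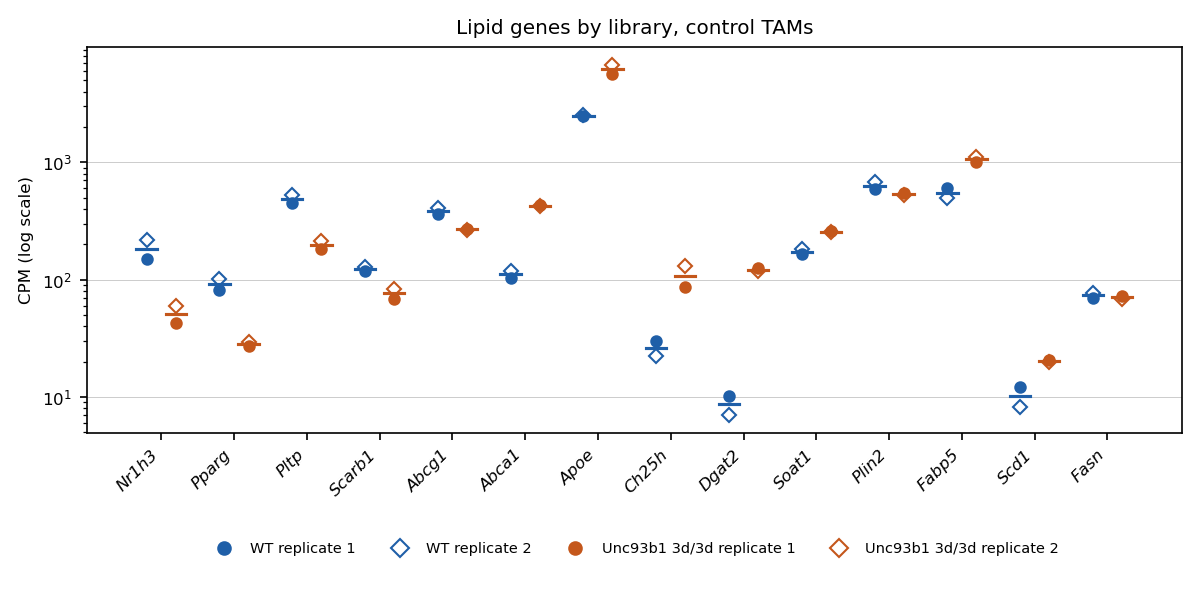
Level of 14 lipid genes in each control library, in CPM on a log axis, with filled circles for replicate 1, open diamonds for replicate 2 and dashes for group means. *Nr1h3*, *Pparg* and *Pltp* sit lower in both *Unc93b1* 3d/3d libraries, *Abca1*, *Apoe*, *Ch25h* and *Dgat2* sit higher, and *Fasn* and *Plin2* lie together.

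The largest difference among the called genes of the metabolism lists was that of *Dgat2*, a gene of triglyceride synthesis. *Dgat2* (ENSMUSG00000030747, chromosome 7, 99153658 to 99182719), which adds the last acyl chain of triglyceride, had 10.3 and 7.04 CPM in WT and 126 and 118 CPM in *Unc93b1* 3d/3d TAMs (log2 fold change −3.83, SE 0.16, edgeR adjusted *P* = 4.08e-06). *Fabp5*, a fatty acid carrier, was higher in *Unc93b1* 3d/3d as well, at 1014 and 1106 CPM against 602 and 494 CPM (−0.97, SE 0.12, edgeR adjusted *P* = 0.0011), and so were the desaturases *Scd1* (−1.01, SE 0.20) and *Fads1* (−0.65, SE 0.10). The fatty acid synthase *Fasn* (0.05) and the lipid droplet coat gene *Plin2* (0.21) were not called. Of 21 tested genes of neutral lipid storage and release 5 were higher in *Unc93b1* 3d/3d and 2 in WT. The latter were *Agpat3* (0.73, SE 0.11) and *Pnpla2* (0.62, SE 0.11), of which *Pnpla2* was not called in the model of all 8 libraries (edgeR adjusted *P* = 0.153). *Lipg*, a secreted phospholipase outside the lists, went the other way, with 140 and 123 CPM in WT and 17.7 and 13.9 CPM in *Unc93b1* 3d/3d (3.04, SE 0.14, edgeR adjusted *P* = 3.02e-06). *Acsl5*, which activates fatty acids, was higher in WT at 155 and 166 CPM against 83 and 89.6 CPM (0.88, SE 0.095), and *Acox3*, a peroxisomal oxidase of branched fatty acids, higher in *Unc93b1* 3d/3d at 140 and 161 CPM against 86.2 and 78 CPM (−0.89, SE 0.10). Sterol synthesis genes had a median of 0.31 against −0.00 over all tested genes, with 4 of 27 higher in WT, among them *Insig1* (0.75, SE 0.11) and *Sqle* (0.59, SE 0.12), and 8 of 27 after a correction for gene length. *Dgat2*, *Fabp5*, *Lipg*, *Acsl5* and *Acox3* kept their calls in the model of all 8 libraries, and *Scd1*, *Fads1* and *Insig1* did not (edgeR adjusted *P* = 0.231, 0.0772 and 0.0703), nor did *Sqle* (0.0919).

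Genes for the nuclear-encoded subunits of the respiratory chain and ATP synthase were shifted together by a small amount. Of 72 tested subunit genes, 70 had a log2 fold change above 0, with a median of 0.41, and 15 were called, all higher in WT, with 17 called by DESeq2. *Ndufa4* had 67.8 and 75.3 CPM in WT and 40.1 and 46 CPM in *Unc93b1* 3d/3d (0.71, SE 0.11, edgeR adjusted *P* = 0.00314), *Cycs*, which encodes cytochrome c, had 93.7 and 101 CPM against 63.8 and 57.2 CPM (0.67, SE 0.10, edgeR adjusted *P* = 0.00294), and *Atp5g3* had 163 and 157 CPM against 93.4 and 107 CPM (0.65, SE 0.099). The 12 tested subunits encoded in mitochondrial DNA did not share the shift. edgeR and DESeq2 each called 0 of them, 1 had an unadjusted *P* of at most 0.05, and their median was −0.05, with *mt-Co1* at 6915 and 6791 CPM in WT and 8036 and 7656 CPM in *Unc93b1* 3d/3d (−0.21, edgeR adjusted *P* = 0.22). Short genes leaned to WT across the transcriptome. In 4 equal groups of all tested genes by length, with median lengths of 1170, 2828.5, 4682.5 and 8302 bases, the median log2 fold change was 0.132, 0.0927, −0.00861 and −0.141. After a smooth length effect was taken out of each library the subunit genes had a median of 0.30 and 7 called members. The number called also moved with single libraries, to 23 without the first WT library, 8 without the first *Unc93b1* 3d/3d library and 23 without the second, and it was 0 in the model of all 8 libraries.

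**Figure D3:**
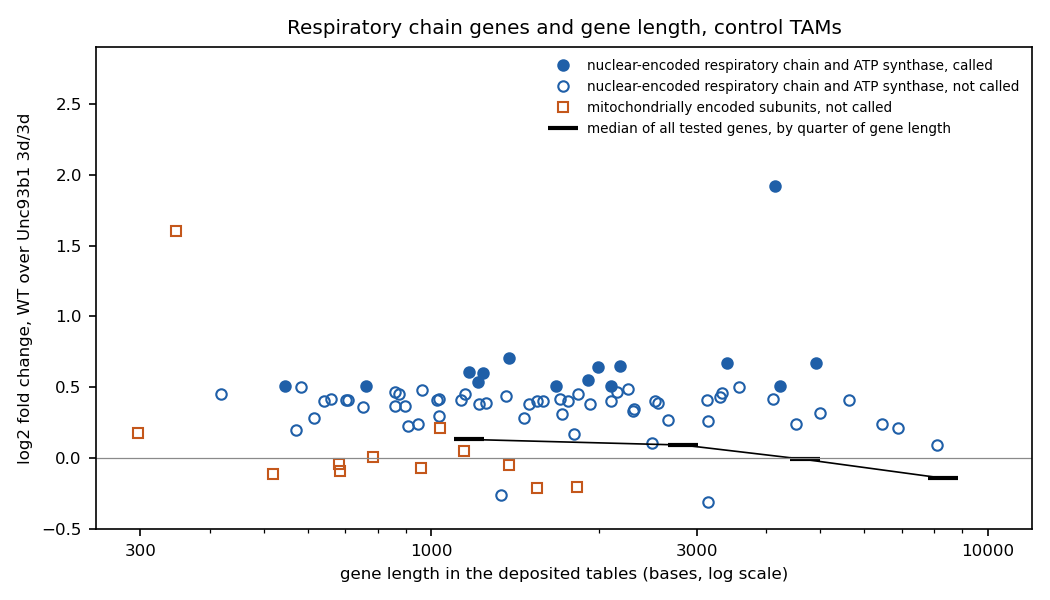
Log2 fold change of respiratory chain and ATP synthase subunit genes (points, filled where called) against gene length in bases on a log axis, with subunits encoded in mitochondrial DNA as squares and the median of all tested genes in 4 equal length groups as a line. Nuclear-encoded subunits lie mostly above the line, and squares scatter around 0 apart from 1 at 1.6 that was not called.

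Glycolytic genes as a group stayed near 0, with a median of −0.03, 3 of 29 higher in WT and 1 lower there. Without the first WT library 1 was higher in WT. *Gapdh*, often used as a reference gene, was the exception in size, with 278 and 251 CPM in WT and 66.6 and 58.5 CPM in *Unc93b1* 3d/3d (log2 fold change 2.06, SE 0.11, edgeR adjusted *P* = 8.14e-06). The other called genes of the list differed less, with *Eno3* (0.64, SE 0.14) and the glucose transporter *Slc2a3* (0.69, SE 0.21) higher in WT and *Hk2* (−0.60, SE 0.12) lower there. In the model of all 8 libraries *Eno3*, *Slc2a3* and *Hk2* were not called (edgeR adjusted *P* = 0.22, 0.256 and 0.196). *Pkm* and *Ldha*, later in the pathway, did not move with *Gapdh*. *Pkm* had a log2 fold change of 0.01 and *Ldha* of 0.08 (edgeR adjusted *P* = 0.946 and 0.651), and the hypoxia regulator *Hif1a* had −0.20. *Gapdh* has many processed pseudogenes, and reads that match several copies may have been assigned in part elsewhere. It was not called in the model of all 8 libraries (edgeR adjusted *P* = 0.213), and its level ranged widely within the αMARCO groups. *Ppp1r3b*, which directs phosphatase to glycogen, was higher in *Unc93b1* 3d/3d at 56.8 and 41.5 CPM against 27.1 and 26.8 CPM (−0.88, SE 0.15), with an edgeR adjusted *P* of 0.0525 in the model of all 8 libraries.

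Enzymes that make or use NADPH and genes of iron handling were more often higher in WT. *Nadk*, which forms NADP, had 219 and 228 CPM in WT and 133 and 124 CPM in *Unc93b1* 3d/3d (0.78, SE 0.095, edgeR adjusted *P* = 0.00105). *G6pdx*, the entry enzyme of the pentose phosphate pathway, had 118 and 125 CPM against 76.6 and 80 CPM (0.62, SE 0.092), and 4 of 13 pathway genes were higher in WT, or 2 without the first *Unc93b1* 3d/3d library. Of 24 iron and heme genes 6 were higher in WT and 1 in *Unc93b1* 3d/3d. *Spic*, the transcription factor of heme-recycling macrophages, had 43.2 and 65.3 CPM in WT and 17.7 and 13.2 CPM in *Unc93b1* 3d/3d (1.80, SE 0.24, edgeR adjusted *P* = 0.0049). *Slc11a1*, the phagosomal metal exporter Nramp1, had 440 and 638 CPM against 206 and 215 CPM (1.34, SE 0.17, edgeR adjusted *P* = 0.00315, and 0.0569 without the first *Unc93b1* 3d/3d library). *Acod1*, which makes itaconate, was higher in WT at 22.3 and 27.9 CPM against 11.7 and 10.8 CPM (1.15, SE 0.16, edgeR adjusted *P* = 0.00236). The model of all 8 libraries kept *Nadk*, *Spic*, *Slc11a1* and *Acod1*, and gave *G6pdx* an edgeR adjusted *P* of 0.0796.

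Uptake receptors separated by class. Of 17 scavenger receptor genes 7 were higher in *Unc93b1* 3d/3d and 1 in WT, with a median of −0.68, and 4 were higher in *Unc93b1* 3d/3d without its second library. *Stab1* (ENSMUSG00000042286, chromosome 14, 31139013 to 31168641), a receptor for modified lipoproteins and phosphatidylserine, had 320 and 354 CPM in WT and 1356 and 1414 CPM in *Unc93b1* 3d/3d TAMs (log2 fold change −2.06, SE 0.11, edgeR adjusted *P* = 7e-06). The lipoprotein receptor genes *Lrp12* (96.2 and 92 CPM against 187 and 200 CPM, −1.06, SE 0.093) and *Lrp1* (1110 and 1248 CPM against 2033 and 2091 CPM, −0.82, SE 0.11) were higher in *Unc93b1* 3d/3d as well, and so was *Msr1*, the class A scavenger receptor (−0.76, SE 0.11). *Stab1* and *Lrp12* were also called in the model of all 8 libraries, in which *Lrp1* and *Msr1* had edgeR adjusted *P* values of 0.252 and 0.0728.

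The bridging proteins that link dying cells to the receptor kinases Axl and Mertk went in opposite directions. *Gas6* (ENSMUSG00000031451, chromosome 8, 13465374 to 13494490) had 53.4 and 52.4 CPM in WT and 249 and 303 CPM in *Unc93b1* 3d/3d TAMs (log2 fold change −2.40, SE 0.12, edgeR adjusted *P* = 4.08e-06). *Pros1*, which encodes protein S, had 32.6 and 46.1 CPM in WT and 16.6 and 18.2 CPM in *Unc93b1* 3d/3d (1.16, SE 0.17, edgeR adjusted *P* = 0.00319). *Axl* had a log2 fold change of 0.49, under the threshold, and of 0.56 and 0.53, past it, without the first WT and without the second *Unc93b1* 3d/3d library. Of 25 tested genes of apoptotic cell clearance 7 were higher in *Unc93b1* 3d/3d and 4 in WT. Both receptors for the complement fragment C5a were higher in *Unc93b1* 3d/3d, *C5ar1* at 240 and 264 CPM against 134 and 132 CPM (−0.94, SE 0.095) and *C5ar2* at 37.5 and 37 CPM against 15.3 and 12.1 CPM (−1.46, SE 0.14). *Gas6*, *Pros1*, *C5ar1* and *C5ar2* were called under each alternative with the threshold of 0.5.

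**Figure D4:**
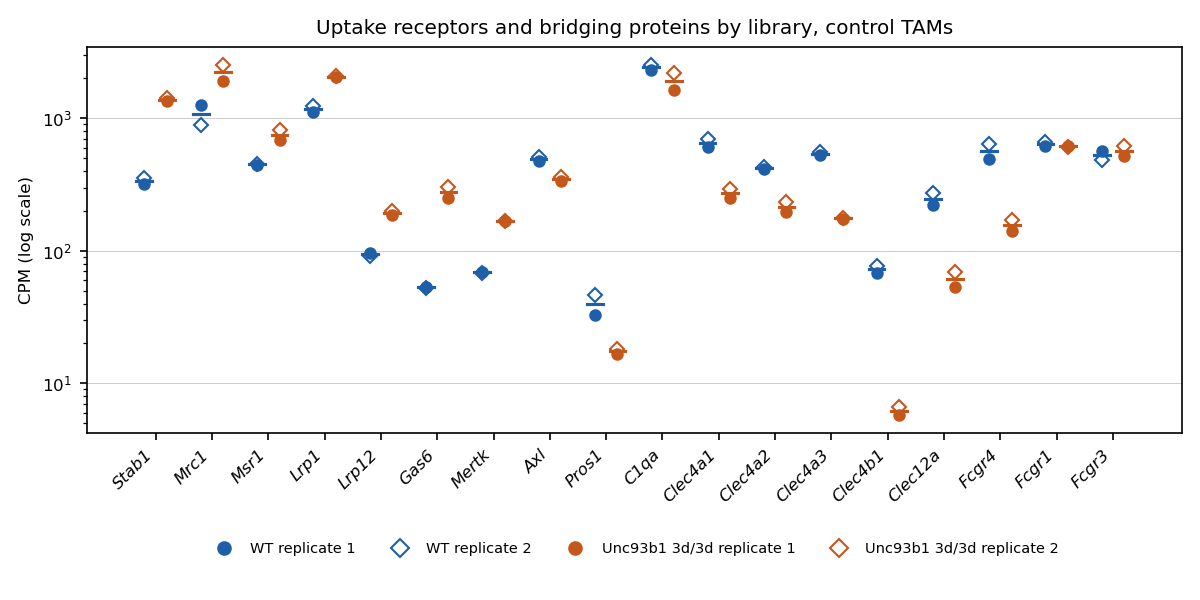
Level of 18 uptake genes in each control library, in CPM on a log axis, with filled circles for replicate 1, open diamonds for replicate 2 and dashes for group means. *Stab1*, *Lrp12*, *Gas6* and *Mertk* are higher in both *Unc93b1* 3d/3d libraries, the Clec4 genes, *Clec12a* and *Fcgr4* are higher in both WT libraries, and *Fcgr1* and *Fcgr3* lie together.

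C-type lectin receptors leaned to WT, with 10 of 27 higher there, 3 higher in *Unc93b1* 3d/3d and a median of 0.44. Clec4 receptors bind sugars and carry inhibitory or activating signals. The neighbouring chromosome 6 genes *Clec4b1*, *Clec4a3*, *Clec4a1* and *Clec4a2* were each higher in WT. *Clec4b1* (chromosome 6, 123049962 to 123071555) had 68 and 77.3 CPM in WT and 5.77 and 6.69 CPM in *Unc93b1* 3d/3d (log2 fold change 3.52, SE 0.14, edgeR adjusted *P* = 1.73e-06). *Clec4a3* had 526 and 558 CPM against 174 and 178 CPM (1.61, SE 0.096), *Clec4a1* had 604 and 703 CPM against 250 and 293 CPM (1.25, SE 0.12), and *Clec4a2* had 412 and 431 CPM against 197 and 233 CPM (0.95, SE 0.11). These genes are close relatives, so their reads may have been shared among them. *Clec12a*, an inhibitory receptor for uric acid crystals, had 220 and 274 CPM in WT and 53.7 and 69.3 CPM in *Unc93b1* 3d/3d (1.99, SE 0.15). *Cd93*, which takes part in the clearance of dying cells, was higher in *Unc93b1* 3d/3d at 592 and 728 CPM against 274 and 325 CPM (−1.16, SE 0.13). In the model of all 8 libraries *Clec4a2* and *Cd93* had edgeR adjusted *P* values of 0.0762 and 0.134, and the other lectins named here kept their calls.

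Of the activating Fc receptors for IgG, *Fcgr4*, the receptor for IgG2, was higher in WT, with 494 and 634 CPM in WT and 141 and 172 CPM in *Unc93b1* 3d/3d (log2 fold change 1.83, SE 0.15, edgeR adjusted *P* = 0.000196). *Fcgr1* and *Fcgr3* were not called, with log2 fold changes of 0.04 and −0.13. *Ptpn6*, the phosphatase SHP-1 that inhibitory receptors recruit, was higher in WT at 687 and 799 CPM against 394 and 438 CPM (0.82, SE 0.11). Endocytic machinery leaned to *Unc93b1* 3d/3d, with 8 of 38 higher there and 1 higher in WT. *Dab2*, a clathrin adaptor, had 1067 and 935 CPM in WT and 1660 and 1874 CPM in *Unc93b1* 3d/3d (−0.84, SE 0.11), and *Snx8*, a sorting nexin, 141 and 136 CPM against 244 and 265 CPM (−0.89, SE 0.094). The 47 lysosomal genes were called at 10.6%, near the share over all genes. The cathepsins divided, with *Ctsl* higher in *Unc93b1* 3d/3d (−0.79, SE 0.099) and *Ctsh* higher in WT (0.68, SE 0.097). *Rac2*, a subunit of the phagocyte NADPH oxidase, had 320 and 392 CPM in WT and 160 and 173 CPM in *Unc93b1* 3d/3d (1.08, SE 0.12). *Fcgr4*, *Snx8* and *Rac2* kept their calls in the model of all 8 libraries, in which *Ptpn6*, *Dab2*, *Ctsl* and *Ctsh* had edgeR adjusted *P* values of 0.0652, 0.113, 0.108 and 0.101.

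Matrix structural genes were higher in *Unc93b1* 3d/3d samples. Of 27 tested collagen and fibre genes 8 were higher there and 0 in WT by edgeR, with 9 and 0 by DESeq2, 0 leaning to WT at an unadjusted *P* of at most 0.05, a median of −0.57, and 13 and 5 higher in *Unc93b1* 3d/3d without the first WT and the first *Unc93b1* 3d/3d library. Of 26 matricellular and basement membrane genes 11 were higher in *Unc93b1* 3d/3d and 0 in WT by edgeR, with 10 and 0 by DESeq2 and 0 leaning to WT at an unadjusted *P* of at most 0.05, or 6 without the first *Unc93b1* 3d/3d library. *Nid2*, the basement membrane linker nidogen-2, had 7.12 and 6.04 CPM in WT and 23.4 and 29.8 CPM in *Unc93b1* 3d/3d (log2 fold change −2.03, SE 0.18, edgeR adjusted *P* = 0.000192). *Col6a3* had 110 and 95.7 CPM against 191 and 172 CPM (−0.83, SE 0.11), *Col3a1* had 71.1 and 63.8 CPM against 111 and 101 CPM (−0.67, SE 0.10), and *Hyal1*, which degrades hyaluronan, had 12.6 and 16 CPM against 29.8 and 34.6 CPM (−1.19, SE 0.16). *Spon1*, a matrix protein outside the lists, had 59.1 and 44.7 CPM in WT and 180 and 173 CPM in *Unc93b1* 3d/3d (−1.78, SE 0.13, edgeR adjusted *P* = 6.74e-05). Of 9 tested fibroblast markers, summed above, 3 were higher in *Unc93b1* 3d/3d and 1 in WT, with a median of −0.94. These markers overlap with the collagen and fibre list, since *Col1a1*, *Col1a2*, *Col3a1*, *Dcn*, *Lum* and *Postn* are in both. The part of fibroblasts in these values was not tested. *Nid2* and *Spon1* kept their calls in the model of all 8 libraries, in which *Col6a3*, *Col3a1* and *Hyal1* had edgeR adjusted *P* values of 0.583, 0.437 and 0.18.

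Proteases and their inhibitors differed in direction. Of 31 matrix proteases 8 were higher in *Unc93b1* 3d/3d and 4 in WT, or 1 in WT without the second *Unc93b1* 3d/3d library. *Mmp12*, the macrophage elastase, had 463 and 397 CPM in WT and 601 and 702 CPM in *Unc93b1* 3d/3d (log2 fold change −0.62, SE 0.12), and *Adam8* had 971 and 989 CPM against 1688 and 1483 CPM (−0.71, SE 0.11). *Mmp9*, a gelatinase, was higher in WT at 10.4 and 11.4 CPM against 4.14 and 4.06 CPM (1.40, SE 0.22). Of 20 protease inhibitor genes 7 were higher in WT and 2 in *Unc93b1* 3d/3d. *Serpinb9*, the inhibitor of granzyme B, had 111 and 76.6 CPM in WT and 23.3 and 20.2 CPM in *Unc93b1* 3d/3d (2.09, SE 0.19, edgeR adjusted *P* = 0.000838), and *Cst3*, cystatin C, had 1643 and 1334 CPM against 736 and 766 CPM (0.97, SE 0.12). *Serpinb9* also passed in the model of all 8 libraries, in which *Mmp12*, *Adam8*, *Mmp9* and *Cst3* had edgeR adjusted *P* values of 0.171, 0.101, 0.128 and 0.199.

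Integrins and adhesion molecules leaned to WT, with 13 of 39 higher there, 3 higher in *Unc93b1* 3d/3d and a median of 0.28. *Pecam1* (CD31), which endothelium, platelets and many leukocytes carry, had 203 and 199 CPM in WT and 28.9 and 24.1 CPM in *Unc93b1* 3d/3d (log2 fold change 2.91, SE 0.12, edgeR adjusted *P* = 1.73e-06). The endothelial markers summed to 91.8 and 98.3 CPM in WT and 104 and 86.3 CPM in *Unc93b1* 3d/3d, and 0 of 4 were called by edgeR or DESeq2 or had an unadjusted *P* of at most 0.05. *F11r*, a junctional adhesion molecule, had 119 and 109 CPM against 32.3 and 30.5 CPM (1.84, SE 0.10), and *Selplg*, the P-selectin ligand, had 424 and 382 CPM against 194 and 198 CPM (1.03, SE 0.097). *Alcam* was higher in *Unc93b1* 3d/3d at 183 and 180 CPM against 116 and 104 CPM (−0.74, SE 0.096), with an edgeR adjusted *P* of 0.0503 in the model of all 8 libraries, in which *Pecam1*, *F11r* and *Selplg* kept their calls.

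Of 33 tested Toll-like receptor and adaptor genes 3 were called, 9.09%, namely *Tlr5*, *Unc93b1* and *Irak3*. *Tlr5*, a receptor for flagellin that sits at the cell surface, had 15 and 8.59 CPM in WT and 35.9 and 28 CPM in *Unc93b1* 3d/3d (−1.45, SE 0.27, edgeR adjusted *P* = 0.0131), with an edgeR adjusted *P* of 0.0778 without the first *Unc93b1* 3d/3d library and of 0.22 in the model of all 8 libraries. The genes of the endosomal receptors were not called. *Tlr7* had 67.5 and 82.2 CPM in WT and 103 and 102 CPM in *Unc93b1* 3d/3d, and its log2 fold change of −0.47 lay under the threshold, and past it without the second WT library (−0.61). *Tlr9* had 100 and 112 CPM against 100 and 96 CPM (0.09, edgeR adjusted *P* = 0.545) and *Tlr3* a log2 fold change of −0.22. *Unc93b1* transcripts had 850 and 965 CPM in WT and 539 and 659 CPM in *Unc93b1* 3d/3d (0.58, SE 0.12, edgeR adjusted *P* = 0.0125), and the call was lost without the first *Unc93b1* 3d/3d library (0.45), without the second WT library (0.50) and in the model of all 8 libraries (edgeR adjusted *P* = 0.155). *Irak3*, the inhibitory kinase of the pathway, was higher in WT at 33.7 and 40.9 CPM against 18.5 and 16.6 CPM (1.07, SE 0.14, edgeR adjusted *P* = 0.00159, and 0.0545 in the model of all 8 libraries). The adaptor *Myd88* (0.45) and the interferon regulator *Irf7* (0.32, edgeR adjusted *P* = 0.102) were not called. Of 19 tested genes of cytosolic nucleic acid sensing, which does not use UNC93B1, 0 were called by edgeR or DESeq2, and 3 had an unadjusted *P* of at most 0.05.

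Genes of NF-κB feedback were lower in *Unc93b1* 3d/3d TAMs. Of 29 tested NF-κB subunits and regulators 10 were higher in WT and 0 in *Unc93b1* 3d/3d by edgeR and by DESeq2, with 2 leaning to *Unc93b1* 3d/3d at an unadjusted *P* of at most 0.05 and a median of 0.32. *Nfkbia* (ENSMUSG00000021025, chromosome 12, 55489410 to 55492647), which encodes the inhibitor IκBα that NF-κB itself induces, had 550 and 507 CPM in WT and 201 and 181 CPM in *Unc93b1* 3d/3d (log2 fold change 1.45, SE 0.10, edgeR adjusted *P* = 5.61e-05). *Tnfaip3* (A20), a deubiquitinase that shuts the pathway off, had 293 and 330 CPM against 176 and 149 CPM (0.92, SE 0.12, edgeR adjusted *P* = 0.00122), and its partner *Tnip1* had 124 and 161 CPM against 74 and 66.8 CPM (1.0, SE 0.13). *Nfkbiz*, a nuclear IκB, had 530 and 672 CPM in WT and 279 and 241 CPM in *Unc93b1* 3d/3d (1.19, SE 0.14), and the adaptor *Traf1* had 191 and 147 CPM against 75.8 and 59.9 CPM (1.30, SE 0.16). The subunits *Nfkb1* (0.74, SE 0.11), *Nfkb2* (0.60, SE 0.10), *Relb* (0.77, SE 0.12) and *Rel* (0.61) were higher in WT, whereas *Rela* was not called, with 115 and 108 CPM against 106 and 106 CPM (0.06, edgeR adjusted *P* = 0.704). *Rel* was not called without the second *Unc93b1* 3d/3d library (0.42). *Relb* is also one of the mature dendritic cell markers, which were higher in sum in WT as given above. The part of such cells in these values was not tested. In the model of all 8 libraries 6 of the 29 genes were called, *Nfkbia*, *Traf1*, *Nfkbiz*, *Tnip1*, *Tnfaip3* and *Nfkb1*.

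**Figure D5:**
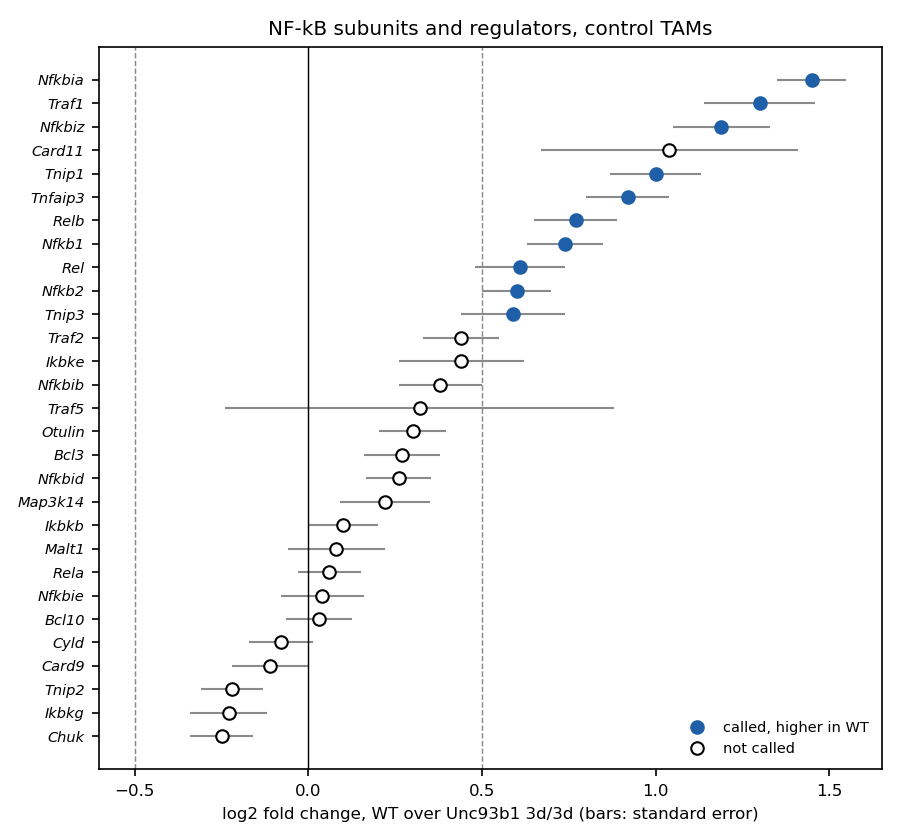
Log2 fold change, WT over *Unc93b1* 3d/3d control TAMs, with its standard error, of the 29 tested NF-κB subunits and regulators, with dashed lines at the threshold of 0.5 in each direction. *Nfkbia* is highest at 1.45, and 10 genes are called, all to the right of 0.

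Since NF-κB is known to induce several of its own regulators, the 250 bases before their start sites (RefSeq, GRCm38.p6) were searched on both strands for a form of the κB motif, GGG and TTTCC with any 2 bases between them. Of the list genes, 23 had a promoter in the table and 5 of them held the motif, 4 of the 7 called genes and 1 of the 16 genes not called. Among all 27025 genes in the table, 1.65% held it. The 4 called genes are printed 5′ to 3′ toward the start site, with the motif, or its complement where it lies on the other strand, in capitals, to show where these letters fall. They lie at chr12:55492648-55492897 (minus strand, *Nfkbia*), chr10:19015411-19015660 (minus strand, *Tnfaip3*), chr11:23770970-23771219 (minus strand, *Rel*) and chr19:46304487-46304736 (plus strand, *Nfkb2*). *Tnfaip3* has another listed start site without the motif, and *Nfkb2* has another with it and another without.
Nfkbia: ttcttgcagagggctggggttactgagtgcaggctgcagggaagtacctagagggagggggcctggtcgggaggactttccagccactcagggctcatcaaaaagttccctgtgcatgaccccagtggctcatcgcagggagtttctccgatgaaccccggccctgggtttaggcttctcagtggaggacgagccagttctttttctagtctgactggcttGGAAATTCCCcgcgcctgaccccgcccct
Tnfaip3: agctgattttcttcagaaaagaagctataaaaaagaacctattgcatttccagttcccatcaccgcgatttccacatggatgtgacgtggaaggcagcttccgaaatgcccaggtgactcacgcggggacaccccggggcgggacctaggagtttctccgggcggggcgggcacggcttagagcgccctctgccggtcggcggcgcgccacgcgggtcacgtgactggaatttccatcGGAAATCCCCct
Rel: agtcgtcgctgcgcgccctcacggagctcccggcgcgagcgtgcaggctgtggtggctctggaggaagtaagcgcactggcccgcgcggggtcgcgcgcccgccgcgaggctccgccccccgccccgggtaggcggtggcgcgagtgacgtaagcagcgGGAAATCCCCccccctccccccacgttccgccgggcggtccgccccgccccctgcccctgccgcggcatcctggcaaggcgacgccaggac
Nfkb2: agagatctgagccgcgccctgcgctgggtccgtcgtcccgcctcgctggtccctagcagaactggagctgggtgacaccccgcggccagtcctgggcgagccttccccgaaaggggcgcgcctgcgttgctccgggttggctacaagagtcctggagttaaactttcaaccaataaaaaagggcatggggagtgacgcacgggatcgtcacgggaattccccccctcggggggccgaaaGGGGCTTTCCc

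The motif ended 19, 2, 81 and 1 bases from the start site in *Nfkbia*, *Tnfaip3*, *Rel* and *Nfkb2*. A match of these letters is a description and shows no binding in these cells. Other forms of the κB motif were not searched, so a gene counted as without it may hold another form. The printed *Nfkb2* stretch, for example, also holds an unmarked gggaattccc, and the counts above hold for the searched form alone.

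Of 33 tested MAP kinase and phosphatase genes 3 were higher in WT and 1 lower, 12.1% together, and 6 were higher in WT without the first *Unc93b1* 3d/3d library. *Dusp2*, a nuclear MAP kinase phosphatase, had 293 and 353 CPM in WT and 119 and 93.9 CPM in *Unc93b1* 3d/3d (log2 fold change 1.59, SE 0.14, edgeR adjusted *P* = 0.000358), and *Map3k8* (TPL2), the kinase that links TLRs to ERK, had 136 and 164 CPM against 81.4 and 72.7 CPM (0.94, SE 0.12). *Dusp6*, a phosphatase of ERK, was higher in *Unc93b1* 3d/3d at 360 and 372 CPM against 272 and 215 CPM (−0.60, SE 0.12, edgeR adjusted *P* = 0.0093), and fell under the threshold without the second WT library (−0.44). *Klf2*, a factor that restrains NF-κB, had 230 and 274 CPM in WT and 90.7 and 99.1 CPM in *Unc93b1* 3d/3d (1.39, SE 0.11), and *Socs3*, the feedback inhibitor of gp130 cytokine receptors, had 839 and 869 CPM against 471 and 458 CPM (0.86, SE 0.097). The early gene *Fos* was not called (0.39). *Map3k8*, *Klf2* and *Socs3* kept their calls in the model of all 8 libraries, and *Dusp2* and *Dusp6* did not (edgeR adjusted *P* = 0.0593 and 0.139).

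Of 42 tested cytokine receptor, JAK, STAT and SOCS genes 5 were higher in WT and 5 lower, with a median of −0.02, and 3 were lower without the first *Unc93b1* 3d/3d library. *Il4ra*, the shared chain of the IL-4 and IL-13 receptors, had 576 and 459 CPM in WT and 1115 and 1120 CPM in *Unc93b1* 3d/3d TAMs (log2 fold change −1.13, SE 0.12, edgeR adjusted *P* = 0.000535). *Ifnar1* (−0.62, SE 0.097) and *Ifnar2* (−0.58, SE 0.093) were higher in *Unc93b1* 3d/3d too. *Il4ra* also passed in the model of all 8 libraries, in which the interferon receptor genes had edgeR adjusted *P* values of 0.119 and 0.0859. In growth factor and developmental pathways *Igf1* had 7.22 and 10.5 CPM in WT and 24.7 and 21.9 CPM in *Unc93b1* 3d/3d (−1.41, SE 0.20), and *Jag1*, a Notch ligand, had 10.2 and 10.2 CPM against 27.6 and 22.8 CPM (−1.31, SE 0.16). *Rbpj*, the factor through which Notch acts, was higher in *Unc93b1* 3d/3d (−0.78, SE 0.098), while the Notch target *Hes1* was higher in WT at 26.3 and 25.5 CPM against 11.8 and 10.5 CPM (1.2, SE 0.15). *Tcf7l2*, a factor of the Wnt pathway, had 52.8 and 67.1 CPM in WT and 22 and 21.5 CPM in *Unc93b1* 3d/3d (1.45, SE 0.14), and *Id3*, a target of BMP signals, had 22.4 and 31.5 CPM against 8.03 and 6.9 CPM (1.84, SE 0.20). The model of all 8 libraries kept *Igf1*, *Jag1* and *Tcf7l2*, and gave *Rbpj*, *Hes1* and *Id3* edgeR adjusted *P* values of 0.0668, 0.263 and 0.0861.

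G protein-coupled receptors changed in both directions. Of 43 tested genes of their list 11 were higher in WT and 8 lower, or 5 lower without the first *Unc93b1* 3d/3d library, and of 22 purine receptor and ectonucleotidase genes 4 were higher in WT and 5 lower, or 3 lower without the second *Unc93b1* 3d/3d library. The formyl peptide receptors were higher in WT. *Fpr2* had 108 and 118 CPM in WT and 18 and 15.3 CPM in *Unc93b1* 3d/3d (log2 fold change 2.75, SE 0.12, edgeR adjusted *P* = 2.85e-06), and *Fpr1*, its neighbour on chromosome 17, had 39.6 and 49 CPM against 7.53 and 3.75 CPM (2.98, SE 0.31, edgeR adjusted *P* = 0.0031). Both detect bacterial and mitochondrial formyl peptides and are also abundant in neutrophils, whose markers summed to 344 and 322 CPM in WT and 269 and 232 CPM in *Unc93b1* 3d/3d, with 1 of 8 called. *Adora2a*, the adenosine receptor that dampens macrophage activation, had 20.1 and 14.8 CPM in WT and 3.77 and 2.08 CPM in *Unc93b1* 3d/3d (2.58, SE 0.30), and the adenosine transporter *Slc29a1* had 113 and 110 CPM against 51.3 and 59.7 CPM (0.99, SE 0.10). *Adora3*, another adenosine receptor, went the other way, with 4.69 and 3.43 CPM in WT and 8.85 and 12.4 CPM in *Unc93b1* 3d/3d (−1.41, SE 0.27, edgeR adjusted *P* = 0.0079). *Hcar2*, the niacin receptor, had 93.4 and 102 CPM against 44.4 and 37.3 CPM (1.24, SE 0.12). *Cmklr1*, a receptor for chemerin (−1.07, SE 0.11), *Gpr34* (−1.73, SE 0.27) and the ADP receptor *P2ry12* (−0.87, SE 0.14) were higher in *Unc93b1* 3d/3d. In the model of all 8 libraries *Cmklr1*, *P2ry12* and *Adora3* had edgeR adjusted *P* values of 0.0814, 0.0569 and 0.0756, and the other genes named here were called.

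Paired receptors, which carry activating or inhibitory signals at the macrophage surface, leaned to WT, with 16 of 40 higher there, 3 higher in *Unc93b1* 3d/3d and a median of 0.50. *Siglece* (ENSMUSG00000030474, chromosome 7, 43651070 to 43660161), an inhibitory receptor for sialic acid, had 155 and 183 CPM in WT and 14.9 and 12.2 CPM in *Unc93b1* 3d/3d (log2 fold change 3.63, SE 0.14, edgeR adjusted *P* = 1.73e-06). *Sirpb1a*, an activating receptor with close relatives, had 318 and 352 CPM against 83.4 and 81.9 CPM (2.0, SE 0.10, edgeR adjusted *P* = 5.73e-06). The Src kinase *Fgr*, which acts below such receptors, had 409 and 371 CPM in WT and 188 and 205 CPM in *Unc93b1* 3d/3d (0.97, SE 0.099). These 3 genes were called under each alternative with the threshold of 0.5. *Trem2*, a lipid receptor of TAMs, was low throughout and higher in *Unc93b1* 3d/3d, at 10.6 and 7.3 CPM against 3.37 and 2.99 CPM (−1.50, SE 0.28, edgeR adjusted *P* = 0.00716, and 0.203 in the model of all 8 libraries). Several of these receptors, *Cd300e* among them, are also known from nonclassical monocytes, whose markers were lower in *Unc93b1* 3d/3d as given above. *Cd300e* is itself one of those markers, so their sum does not stand apart from this gene. The part of such cells was not tested.

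Among myeloid transcription factors *Batf3*, needed for type 1 dendritic cells, had 57.8 and 65.1 CPM in WT and 11.9 and 13.6 CPM in *Unc93b1* 3d/3d (log2 fold change 2.25, SE 0.13, edgeR adjusted *P* = 1.14e-05). Markers of type 1 dendritic cells, *Batf3* itself among them, summed to 1175 and 1150 CPM in WT and 729 and 888 CPM in *Unc93b1* 3d/3d. Of these markers 3 of 9 were called, *Batf3* included, and the part of such cells was not tested. *Pou2f2* (OCT2), a factor of B cells and nonclassical monocytes, had 213 and 252 CPM against 57.9 and 52.7 CPM (2.06, SE 0.12, edgeR adjusted *P* = 1.12e-05). It is itself counted among the nonclassical monocyte markers. The part of B cells and monocytes, whose markers were higher in sum in WT, was not tested.

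The αMARCO libraries are separate samples in which the same genotypes can be set side by side. There the test between genotypes called 0 of 15722 genes, while 1076 had an unadjusted *P* under 0.05, and replicates lay far apart for some genes, as with *Gapdh* at 85 and 235 CPM in WT αMARCO and 73.6 and 405 CPM in *Unc93b1* 3d/3d αMARCO. The genes nearest to on and off in control TAMs held the same order under αMARCO. *Fcrl5* had 72.9 and 66.8 CPM in WT αMARCO and 0.4 and 0.137 CPM in *Unc93b1* 3d/3d αMARCO, *Cd300e* had 253 and 271 CPM against 13.6 and 9.78 CPM, and *Siglece* had 72.1 and 80.3 CPM against 17.3 and 20.9 CPM. *Asb2* and *Ptprm* likewise had 32.3 and 31.2 CPM against 1.91 and 2.46 CPM and 13.8 and 13.1 CPM against 0.133 and 0.0684 CPM, and *Negr1* had 0 CPM in both *Unc93b1* 3d/3d libraries and 2.66 and 1.76 CPM in WT. *Nr1h3* kept its order as well, at 154 and 156 CPM against 36.2 and 47.3 CPM.

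Several genes higher in *Unc93b1* 3d/3d control TAMs had overlapping or nearer values under αMARCO. *Dgat2* had 7.39 and 11 CPM in WT αMARCO and 10.5 and 13.7 CPM in *Unc93b1* 3d/3d αMARCO, so that all 4 libraries lay near the WT control level. *Il4ra* had 796 and 708 CPM against 839 and 675 CPM, *Stab1* had 993 and 914 CPM against 1058 and 592 CPM, and *Abca1* had 248 and 262 CPM against 231 and 131 CPM. *Gas6* remained higher in *Unc93b1* 3d/3d, at 130 and 140 CPM against 74.5 and 70.7 CPM, and so did *Ch25h*, at 108 and 164 CPM against 26.1 and 26.9 CPM. Some genes higher in WT control TAMs did not hold either. *Pros1* had 16.5 and 16.2 CPM in WT αMARCO and 14.6 and 13.9 CPM in *Unc93b1* 3d/3d αMARCO. The lectin receptor gene *Ly75* (1.89 in control TAMs) had 2.22 and 3.05 CPM against 4.93 and 3.35 CPM. These genes are examples, and a difference between the directions was not tested. The difference between the genotype effects was tested in the model of all 8 libraries and was called for 0 of 16620 genes by edgeR, while 2549 had an unadjusted *P* under 0.05 and 200 called by DESeq2. For *Dgat2* it was −3.41 on the log2 scale (edgeR adjusted *P* = 0.164), for *Stab1* −2.23 and for *Abca1* −2.42 (both 0.281). This count rested on the *Unc93b1* 3d/3d αMARCO libraries, since 6440 genes were called without the first of them and 612 without the second. Of the 1908 genes called in control TAMs and tested under αMARCO, 54.8% had the same sign in both, against 42.3% of all genes tested in both.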

How the data were processed

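Poly-A selected RNA of 8 TAM pools was sequenced on a NovaSeq instrument, with 2 libraries in each of 4 groups. The authors deposited the raw number of reads per gene (counts), obtained with fastp, HISAT2 2.0.5 and featureCounts 1.5.0. Library strandedness is not given in the sources used here. The tables also hold 24 columns of normalised and FPKM values per sample, and the authors' DESeq2 fold changes and p-values, none of which were used.

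The control libraries of WT and of *Unc93b1* 3d/3d mice are held by separate tables, which were joined on the gene identifier (26939 genes). Some libraries recur between tables, and 0 of their 95230 shared counts differed. Genes that a table leaves out were set to 0 (4256 genes in at least 1 control library), and the largest count found for any left-out gene in a recurring library was 1. Positions are as deposited, and 95.5% are identical with GENCODE positions on GRCm38.

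The 4 control libraries were fitted in edgeR 4.0.16 (R 4.3.3) with TMM factors, filterByExpr and the robust quasi-likelihood test, after a check on simulated data. Replicates are pools of mice, so *P* values measure the spread between 2 pools per genotype. Floors and intervals cover counting error only, and exact intervals are at the 95% level.

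Gene lists were written by hand, and the members, lists and tests were chosen with earlier results of these data known. Up to 3 called members per list and direction were named, with groups that did not overlap and a mean of at least 5 CPM in the higher group, besides *Unc93b1* and 12 genes per direction outside the lists with at least 20 CPM. Other list members were added, after their values were seen, to complete a pathway.

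Alternatives were DESeq2 1.42.0, its size factors, 2 other count filters, all 8 libraries in a single model, a block for the replicate number, a smooth length term per library (mgcv 1.9.3), the last 2 together, other fold change thresholds and each library left out.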

Additional observations from a re-analysis of the deposited data

How the results depend on the processing

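Of 197 genes named by rule, 0 reversed under any alternative and 61 were called under each that tested them. With all 8 libraries in a single model, 116 were not called, and the calls fell to 364 genes in all, 14 in the metabolism, 15 in the uptake, 11 in the matrix and 38 in the signalling lists. A fold change threshold of 1 left 951, 16, 21, 21 and 54, and *Unc93b1* (0.58) under it. Without a fold change threshold 144 metabolism genes were called. Leaving out single libraries, the calls ranged from 1493 to 2232 in all, from 68 to 103 for metabolism, 51 to 61 for uptake, 43 to 62 for matrix and 111 to 132 for signalling. *Unc93b1* had a log2 fold change of 0.60 in the model of all 8 libraries, where it was not called, and of 0.45 to 0.73 with a library left out. For the difference between genotype effects, DESeq2 called 200 genes, the unfiltered fit 152, and the fits without a library 0 to 6440. The cause of these changes was not tested. Replicate numbers did not pair the control samples, since the deviations of same-numbered samples correlated at 0.0153 over 15600 genes. A block for the replicate number gave 2395 calls in all and 95, 59, 63 and 135 in the metabolism, uptake, matrix and signalling lists, and 0 for the difference between genotype effects. It took away the call of *Ch25h* (edgeR adjusted *P* = 0.0596). Signs turned only for genes near 0 that were not called. With a library left out *Fasn* ranged from −0.02 to 0.13, *Ldha* from −0.01 to 0.16 and *Pkm* from −0.05 to 0.08, *Pkm* was −0.00 with a filter of 10 counts, and with the length correction *Fcgr1* was −0.04 and *Rela* −0.02.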

Other observations

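Several of the genes outside every list were as far apart as the list genes. *Tmem26*, a membrane protein, had 48.8 and 43.1 CPM in WT and 8.28 and 7.96 CPM in *Unc93b1* 3d/3d control TAMs (log2 fold change 2.48, SE 0.14, edgeR adjusted *P* = 9.42e-06). *Cdk18*, a cyclin-dependent kinase relative, had 6.85 and 8.7 CPM in WT and 43.3 and 42.9 CPM in *Unc93b1* 3d/3d (−2.49, SE 0.15, edgeR adjusted *P* = 1.81e-05). *Ctnnd2*, a catenin of cell junctions, had 42.8 and 31.5 CPM against 136 and 119 CPM (−1.80, SE 0.15), and *Ppbp*, a platelet chemokine precursor, had 11.6 and 8.53 CPM against 46.1 and 59.9 CPM (−2.41, SE 0.18). *Gpr162*, an orphan receptor, had 22.5 and 29.4 CPM against 114 and 99.4 CPM (−2.06, SE 0.14). These 5 genes, given as examples, were called under each alternative, and in the αMARCO libraries the genotypes kept the same order without overlap, with *Cdk18* at 12.4 and 14 CPM in WT and 46.1 and 45.8 CPM in *Unc93b1* 3d/3d and *Ppbp* at 19.4 and 20.4 CPM against 25.9 and 47.6 CPM. Of the genes called in control TAMs, 36% kept their order without overlap under αMARCO, against 21.3% of all genes tested in both.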
